A study of Mus musculus with 4 samples.

Results

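The genes described here are 10 markers of the primitive streak and the mesoderm that leaves it: T, Eomes, Mixl1, Fgf8, Wnt3, Gsc, Evx1, Lhx1, Kdr and Cdx1. They were chosen by symbol, and all 10 were found among the 54838 gene identifiers of the count tables, each as 1 row. RNA sequencing libraries came from wild-type E14 cells, a mouse embryonic stem cell line (E14Tg2a.4, from 129/Ola mice), and from the p300 knock-in line MLC460, with 2 libraries each. In MLC460, CRISPR/Cas9 editing fused mEGFP, a monomeric green fluorescent protein, to the N-terminus of endogenous p300, a coactivator and histone acetyltransferase. All cells grew on gelatin in serum with leukemia inhibitory factor (LIF), which holds stem cells in self-renewal, and no differentiation treatment is named. With 1 tagged line, changes acquired during its derivation cannot be told apart from those of the tag. The replicates are labelled biological, with no statement that they came from separate cultures, so the p-values measure only the spread between these libraries.

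The primitive streak is the region of the gastrulating embryo where epiblast cells become mesoderm and endoderm. Wnt3, Nodal and bone morphogenetic protein signals induce it, and the T-box factors T (brachyury) and Eomes, with homeobox factors such as Mixl1, Evx1, Gsc and Lhx1, then pattern the cells that pass through. Embryonic stem cells correspond to an earlier stage, and in serum and LIF some cells in a culture can express such genes at a low level. What was asked here is how much of this program was detectable in the libraries and whether it differed in the tagged line. In bulk RNA, fewer cells expressing a gene and less RNA per cell cannot be told apart.

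The start regions of 3 members show the kind of sequence in front of these genes. Eomes and Gsc were shown because they had the lowest p-values among the members lower in knock-in cells, and T because it defines the streak. The bases lie upstream of both the RefSeq and the GENCODE start, are read 5′ to 3′ on the gene's strand and come from RefSeq on GRCm38.p6. Capitals mark matches, on either strand, to CTTTGA or CTTTGT (core letters bound by the Wnt effectors TCF and LEF), AGGTGT (core letters bound by T-box factors) or TATAAA (the TATA box). No 2 matches overlapped.
T, chr17:8434173-8434422, plus strand: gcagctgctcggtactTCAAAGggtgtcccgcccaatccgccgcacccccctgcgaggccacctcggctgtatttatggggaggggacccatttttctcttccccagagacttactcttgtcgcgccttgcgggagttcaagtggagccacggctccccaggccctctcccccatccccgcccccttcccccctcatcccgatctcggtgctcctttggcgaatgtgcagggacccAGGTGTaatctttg
Eomes, chr9:118477939-118478188, plus strand: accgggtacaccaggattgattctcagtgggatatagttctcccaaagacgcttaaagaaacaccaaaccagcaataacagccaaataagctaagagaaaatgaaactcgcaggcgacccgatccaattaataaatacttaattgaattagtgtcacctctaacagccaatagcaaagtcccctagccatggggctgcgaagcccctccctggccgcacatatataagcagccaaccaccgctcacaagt
Gsc, chr12:104473331-104473486, minus strand: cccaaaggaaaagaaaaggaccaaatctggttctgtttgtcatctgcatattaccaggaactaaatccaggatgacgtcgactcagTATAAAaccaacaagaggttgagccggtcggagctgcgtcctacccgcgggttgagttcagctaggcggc

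The T sequence held 1 match to CTTTGA, on the reverse strand, and 1 to AGGTGT, and the Gsc sequence held 1 to TATAAA. In the Eomes sequence none of these letters was found. Over the 250 bases upstream of the RefSeq start, 13.8% of 32851 mouse promoters held CTTTGA, 16.5% held CTTTGT, 11.8% held AGGTGT and 12.4% held TATAAA. The 7 members with a RefSeq promoter (T, Eomes, Wnt3, Gsc, Evx1, Lhx1 and Kdr) each had more CpG dinucleotides in that window than the median promoter, which had 6. Eomes had the fewest, 8, and Lhx1 the most, 26, with 10 in Evx1, 14 in T, 16 in Kdr and 22 each in Gsc and Wnt3. These are descriptions of the letters, and no measurement of binding or methylation is at hand. Mixl1, Fgf8 and Cdx1 were named without sequence.

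The libraries held 18946731 to 26553998 counts assigned to genes. The core pluripotency genes were abundant in all 4: Pou5f1, Sox2 and Nanog had 454 to 660, 420 to 459 and 574 to 637 CPM (counts relative to the library's total, scaled by the TMM factors of edgeR), so the cells carried the defining transcripts of their label. Ep300, the tagged gene, had 209 and 210 CPM in wild-type 1 and 2, against 181 and 210 CPM in knock-in 1 and 2, and its log2 fold change was -0.10 (SE 0.15, edgeR adjusted p = 0.804; 0.01 with the GC correction described next), while that of its paralog Crebbp was 0.10 (0.23 with it). Wild-type 2 stood apart from the others: its deviation from them rose with the GC content of the transcript across genes (Spearman rho 0.65, against -0.27 to -0.43 in the other libraries; genes are not independent replicates). A correction for GC content was therefore fitted beside the uncorrected comparison, and it moved the median log2 fold change of all tested genes from 0.00 to 0.06.

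Of the 10 members, 7 were under 1 CPM in every library, and together the members held 306 to 518 counts per library. Their summed level was 18.8 and 18.5 CPM in wild-type 1 and 2, against 18.7 and 16.4 CPM in knock-in 1 and 2, against 454 CPM or more for Pou5f1 alone. Eomes and Cdx1 supplied 73.5% to 82.7% of the members' counts. Without these, the members summed to 3.66 and 4.90 CPM in the wild-type libraries and to 3.40 and 2.83 CPM in the knock-in libraries. A single library's value for a gene with 10 counts has a 95% Poisson interval of 4.80 to 18.4 counts, and 3 counts correspond to 0.109 to 0.160 CPM, so most members were measured close to what counting allows. These intervals cover counting error only.

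**Figure D1:**
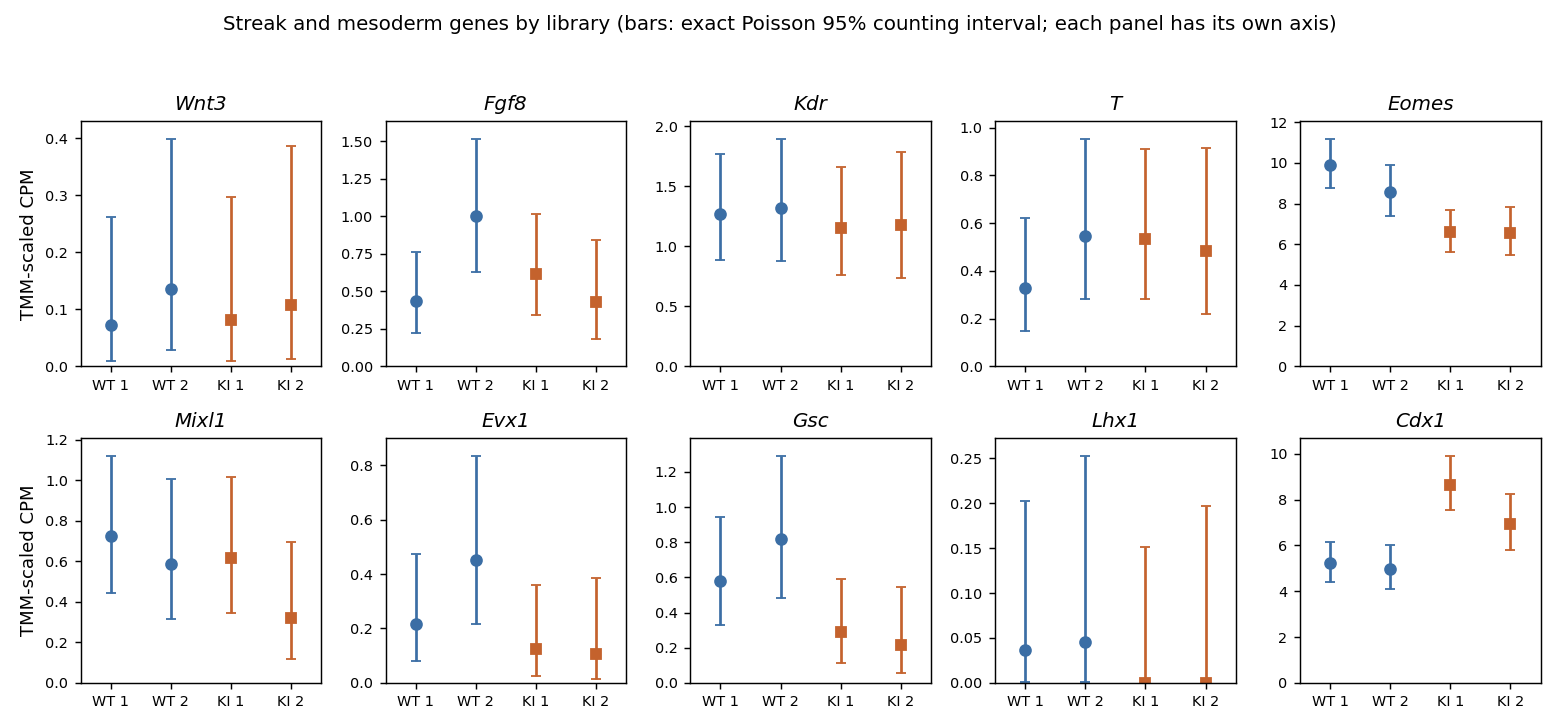
TMM-scaled CPM of each member in wild-type 1 and 2 (WT, circles) and knock-in 1 and 2 (KI, squares), with exact Poisson 95% counting intervals and a separate linear axis per gene. Eomes at 6.58 to 9.91 CPM and Cdx1 at 4.99 to 8.65 CPM are the members with the tightest intervals relative to their level, while Lhx1 has 0 counts in both knock-in libraries.

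Among the secreted signals, Wnt3, the ligand needed to start the streak (ENSMUSG00000000125, chromosome 11, 103774150 to 103817957), was at the limit of detection. It had 2 and 3 counts in wild-type 1 and 2, against 2 counts in each knock-in library, or 0.0726 to 0.136 CPM, so no fold is given. Fgf8, a fibroblast growth factor that drives migration of cells out of the streak (ENSMUSG00000025219, chromosome 19, 45736798 to 45742915), had 12 and 22 counts in wild-type 1 and 2, against 15 and 8 in knock-in 1 and 2. The levels of 0.435 and 0.998 CPM in wild-type and 0.615 and 0.428 CPM in knock-in cells overlap, wild-type 2 alone being high. The log2 fold change of Fgf8, knock-in over wild-type, was -0.41 (SE 0.57, 95% interval -1.69 to 0.88, edgeR adjusted p = 0.793). It was -0.13 with the GC correction, and without wild-type 2 it was 0.26, so its direction rests on that library.

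Kdr encodes the receptor for vascular endothelial growth factor that marks the mesoderm giving rise to blood and vessels (ENSMUSG00000062960, chromosome 5, 75932827 to 75978458). It had 1.27 and 1.32 CPM in wild-type and 1.15 and 1.18 CPM in knock-in cells, from 22 to 35 counts. The knock-in libraries were lower than both wild-type libraries by less than the counting interval of any of them (log2 fold change -0.15, SE 0.38, interval -1.0 to 0.69, edgeR adjusted p = 0.894; -0.10 with the GC correction).

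The T-box factors stood far apart in level. T, the activator of mesoderm genes whose loss stops axial growth (ENSMUSG00000062327, chromosome 17, 8434423 to 8442496), had 9 and 12 counts in wild-type 1 and 2, against 13 and 9 in knock-in 1 and 2. That is 0.327 and 0.544 CPM against 0.533 and 0.481 CPM, with the knock-in values between the wild-type ones. Its log2 fold change was 0.25 (SE 0.55, edgeR adjusted p = 0.882), with an interval of -0.99 to 1.48 that is wide in both directions. Corrected for GC content, T was at 0.39, and without wild-type 1 it was -0.09.

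Eomes, which directs epiblast cells to definitive endoderm and cardiac mesoderm and also acts in trophoblast (ENSMUSG00000032446, chromosome 9, 118478212 to 118486132), had 273 and 189 counts in wild-type 1 and 2, against 161 and 123 in knock-in 1 and 2. Its level was 9.91 and 8.57 CPM in wild-type and 6.60 and 6.58 CPM in knock-in cells, and the groups did not overlap. The means were 9.24 ± 0.942 and 6.59 ± 0.0181 CPM (SD, n = 2 each). The log2 fold change of -0.49 (SE 0.21, interval -0.97 to -0.01) did not pass over all genes (edgeR adjusted p = 0.453). It was -0.31 with the GC correction (edgeR adjusted p = 0.415). Uncorrected, it was -0.38 without wild-type 1 and -0.60 without wild-type 2. Corrected, it was -0.14 without wild-type 1 and -0.45 without wild-type 2. An antisense gene, Gm33460, shares 118 bases of exon with Eomes and had 4 to 9 counts per library. Reads on shared bases are counted for neither gene in the unstranded counts used here, so these values do not measure the overlap. In the forward and reverse strand columns Eomes had 164 and 157 counts in wild-type 1, together more than its 273 unstranded counts. Its log2 fold change was -0.51 in the forward-strand column and -0.43 in the reverse-strand column.

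The homeobox factors Mixl1 and Evx1 act in streak cells and the early mesoderm. Mixl1 (ENSMUSG00000026497, chromosome 1, 180693043 to 180697034) had 20 and 13 counts in wild-type 1 and 2, against 15 and 6 in knock-in 1 and 2, or 0.726 and 0.590 against 0.615 and 0.321 CPM. Knock-in 1 lay between the wild-type libraries of Mixl1, and the difference did not pass (log2 fold change -0.46, SE 0.53, interval -1.66 to 0.74, edgeR adjusted p = 0.745; -0.43 with the GC correction). Evx1 (ENSMUSG00000005503, chromosome 6, 52313498 to 52318378) had 6 and 10 counts in wild-type 1 and 2, against 3 and 2 in knock-in 1 and 2, too few to pass the low-count filter. Its summed counts were 16 in wild-type and 5 in knock-in cells, a level 2.78 times as high in wild-type with a counting interval of 0.973 to 9.70. Evx1 shares 73 bases of exon with its antisense gene Evx1os, which had at most 2 counts in a library. Reads on those bases are missing from these counts of both genes. The forward-strand column held 4 and 10 Evx1 counts in wild-type 1 and 2, against 2 in each knock-in library. The reverse-strand column held 2 and 3 against 3 and 1, so the ratio of 2.78 depends on the column used.

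Gsc and Lhx1 mark the anterior end of the streak, the organizer. Gsc (ENSMUSG00000021095, chromosome 12, 104471209 to 104473330) had 16 and 18 counts in wild-type 1 and 2, against 7 and 4 in knock-in 1 and 2. Its level of 0.581 and 0.816 CPM in wild-type lay above 0.287 and 0.214 CPM in knock-in cells, without overlap. The log2 fold change of -1.43 (SE 0.57, interval -2.71 to -0.15) was the largest in size among the tested members and did not pass over all genes (edgeR adjusted p = 0.435). With the GC correction it was -1.19 (edgeR adjusted p = 0.297). Gsc has the most GC-rich transcript of the members, at 66.6%, and it entered the test only through its wild-type libraries, which alone exceeded the low-count filter. Lhx1 (ENSMUSG00000018698, chromosome 11, 84518284 to 84525535) had 1 count in each wild-type library and 0 in each knock-in library, where a count of 0 allows up to 3 counts (the one-sided 95% limit), or 0.123 and 0.160 CPM. No fold is given for Lhx1.

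Cdx1, a caudal homeobox factor that responds to Wnt signals and sets posterior identity (ENSMUSG00000024619, chromosome 18, 61018862 to 61036199), was the member whose knock-in libraries both lay above wild-type. It had 144 and 110 counts in wild-type 1 and 2, against 211 and 130 in knock-in 1 and 2, or 5.22 and 4.99 against 8.65 and 6.95 CPM. The means were 5.11 ± 0.166 and 7.80 ± 1.20 CPM (SD, n = 2 each). The log2 fold change of 0.61 (SE 0.23, interval 0.09 to 1.14) did not pass over all genes (edgeR adjusted p = 0.424), nor did 0.86 with the GC correction (edgeR adjusted p = 0.0658). Cdx1 passed without wild-type 1 (0.65, edgeR adjusted p = 0.0192), in a fit where 32.1% of all genes passed. Under the GC correction Cdx1 passed once any library but knock-in 1 was also dropped: the values were 1.05 without wild-type 1, 0.72 without wild-type 2 and 1.01 without knock-in 2 (edgeR adjusted p = 0.000366, 0.0431 and 0.0387), in fits where 10%, 3.84% and 0.953% of genes passed. With the correction and the replicate number as a block, Cdx1 passed at 0.86 (edgeR adjusted p = 0.0170) beside 2.65% of genes. Without knock-in 1, the library with the highest value, the log2 fold change of Cdx1 was 0.42 (edgeR adjusted p = 0.999).

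Per kilobase of exon, the scale used to order the members, the order began with Cdx1 (mean over the 4 libraries 3.69 CPM per kilobase) and Eomes (1.90). The library ranges of Cdx1 and Eomes did not overlap each other or those of the members below. Next came Fgf8 (0.459), Gsc (0.374), Mixl1 (0.245), T (0.204), Kdr (0.136), Evx1 (0.0783) and Wnt3 (0.0323), in which each neighbour's range over libraries overlapped the next. Lhx1 was last (0.00501), below the range of Wnt3. Cdx1 lay above 48.4% of the 15191 genes tested and Eomes above 35.7%, while T lay above 6.71%. Pou5f1 had 236 CPM per kilobase, and the Nodal coreceptor gene Tdgf1 had 470. The transcripts of the members range from 48.5% GC in Mixl1 to 66.6% in Gsc.

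**Figure D2:**
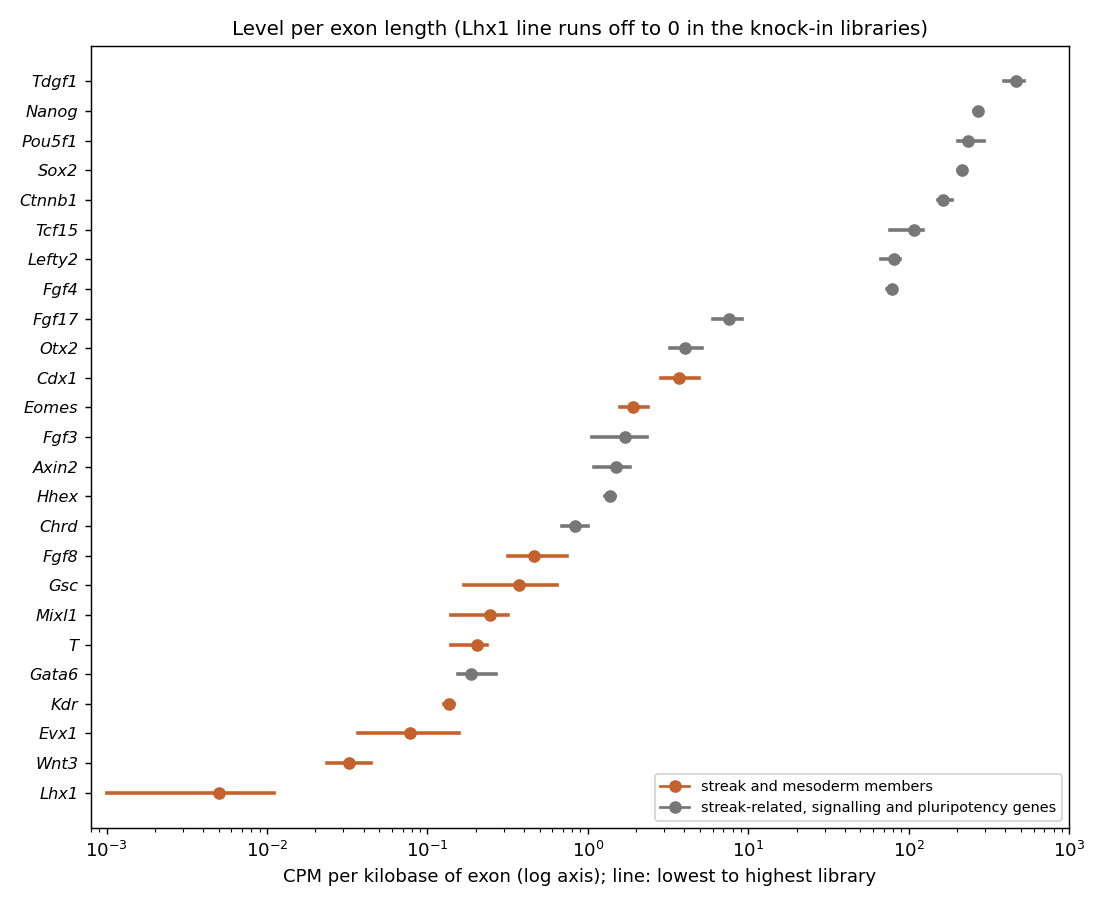
Mean level per kilobase of exon on a log axis, with the range over the 4 libraries, for the 10 members and for related genes named in the text. The members run from Lhx1 at 0.00501, whose line reaches 0, to Cdx1 at 3.69 CPM per kilobase, while Fgf4, at 78.6, and the pluripotency factors lie higher.

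Tested together with all genes, none of the 7 members that passed the low-count filter differed between the lines in edgeR's quasi-likelihood test at an adjusted p of 0.05, where 10 of 15191 genes (0.0658%) did. DESeq2 and limma-voom likewise gave 0 members past the threshold (0.81% and 0.0263% of genes), although DESeq2 set no adjusted p for T, Mixl1 and Gsc. At an unadjusted p under 0.05 there were 3 members in edgeR: Eomes and Gsc were lower, as were 7.4% of tested genes, and Cdx1 was higher, as were 3.54%. Both knock-in libraries lay below both wild-type libraries for Eomes, Gsc and Kdr and above them for Cdx1, against 23.9% and 23.4% of tested genes in these directions. Gsc stands in these counts although it entered the test only through the group where it is high, so they describe the members and support no difference. Evx1 and Lhx1, under the filter, were lower in both knock-in libraries too, Lhx1 by 1 count against 0. The same held for 19.2% of the 27017 genes with any count. The median log2 fold change of the 7 tested members was -0.41, and that of all tested genes 0.00. With the GC correction these medians were -0.13 and 0.06. The members' median also includes Gsc. Of the tested members, 5 had negative and 2 positive log2 fold changes, and the intervals of T, Mixl1, Fgf8 and Kdr spanned 0.

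**Figure D3:**
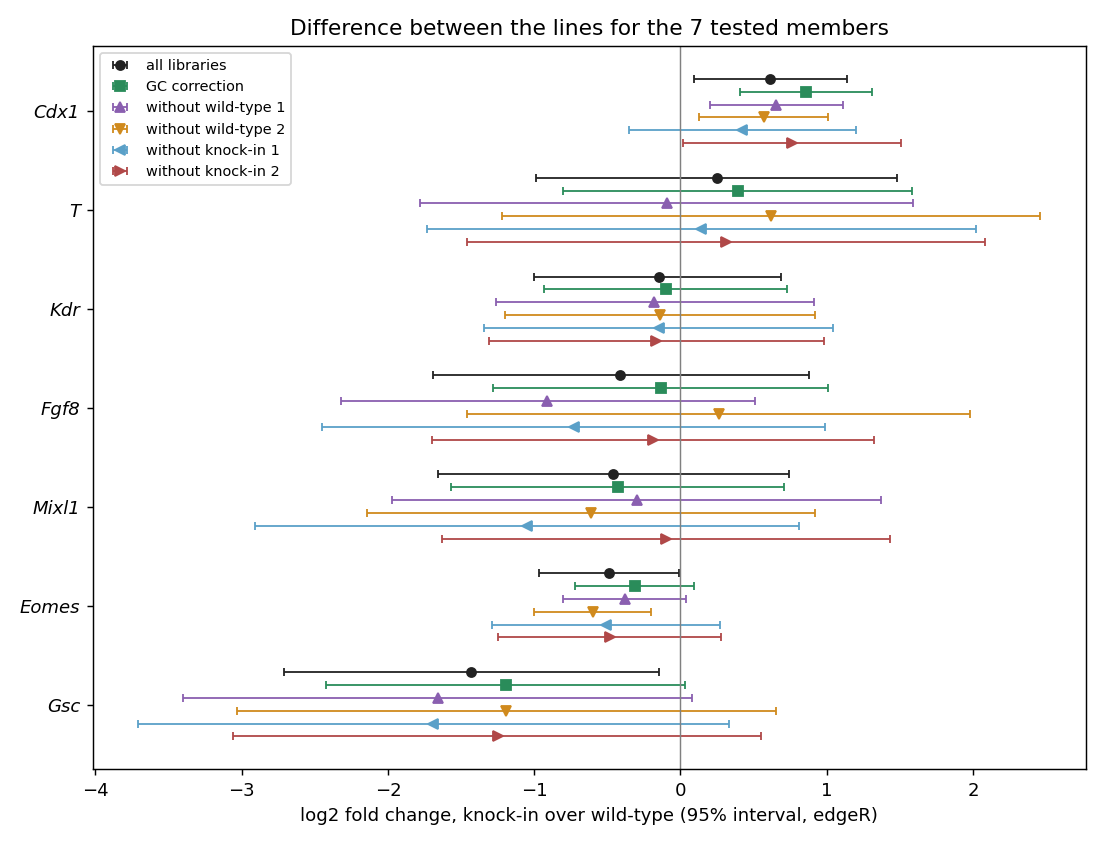
Log2 fold change of knock-in over wild-type with 95% intervals for the 7 tested members, with all libraries, with the GC correction, and with each library left out. In the 6 fits drawn the point estimate of Cdx1 stays right of 0, and those of Gsc, Eomes, Mixl1 and Kdr left of it. Their intervals cross 0 in some or all fits. Examples are Cdx1 without knock-in 1 (-0.35 to 1.2), and Gsc (-2.42 to 0.03) and Eomes (-0.72 to 0.09) with the GC correction. Fgf8 moves from -0.91 to 0.26 with the wild-type library used.

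Of 28 other streak and nascent mesoderm genes, 15 were tested and 0 passed (0.0658% of all genes did in edgeR), with a median log2 fold change of -0.17 (0.09 with the GC correction). Mesp1 and Tbx6, factors of nascent and paraxial mesoderm, stayed under 1 CPM in all libraries, and Msgn1 had 0 counts in all 4. Others of the list lay above 1 CPM in every library, among them Mesp2 (1.60 to 2.87 CPM), Hand1 (1.27 to 2.46 CPM) and Snai1 (2.87 to 4.17 CPM). The most abundant gene of the list was Tcf15, a factor of paraxial mesoderm that pluripotent cells also express. It had 74.6 and 121 CPM in wild-type 1 and 2, against 117 and 110 CPM in knock-in 1 and 2 (log2 fold change 0.21, SE 0.22). Without wild-type 2, where 4.39% of genes passed, the value for Tcf15 was 0.59 (edgeR adjusted p = 2.47e-05), and without wild-type 1 it was -0.09. It was 0.48 with the GC correction (edgeR adjusted p = 0.105). The growth factor gene Fgf17 had a log2 fold change of -0.20 (SE 0.23), which turned to 0.06 with the GC correction and was -0.01 without wild-type 2. Fgf3, expressed in the streak, had 4.97 and 5.44 CPM in wild-type and 2.91 and 2.46 CPM in knock-in cells (-0.95, SE 0.26, edgeR adjusted p = 0.292). Its value was -1.01 without wild-type 1 and -0.89 without wild-type 2. Fgf3 did not pass with the GC correction (-0.72, edgeR adjusted p = 0.161). In 2 of 19 alternatives Fgf3 passed: without wild-type 1, and with a crossed pairing of the replicates that was added after the data were seen. Axin2, a direct target of Wnt signalling like Cdx1, had 5.99 and 7.53 CPM in wild-type and 10.05 and 9.57 CPM in knock-in cells (0.54, SE 0.22, edgeR adjusted p = 0.437). Its value was 0.38 without wild-type 1 and 0.70 without wild-type 2. Axin2 did not pass with the GC correction alone (0.74, edgeR adjusted p = 0.0651). With the correction and the replicate number as a block it passed at 0.74 (edgeR adjusted p = 0.0281), beside 2.65% of genes. In all, Axin2 passed in 4 of 19 alternatives. The others were without wild-type 2 and, with the correction, without wild-type 1 (0.65) or wild-type 2 (0.85), fits that leave a lone wild-type library.

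Apart from the Wnt ligands, most signals that induce the streak and their transducers were present at much higher levels than the members. The list of 29 genes covers Nodal, BMP and FGF ligands, and receptors and effectors of these and of Wnt signals. It holds no Wnt ligand, and Wnt3 itself was at the limit of detection. Of the 29 genes, 28 were tested, 0 passed and the median log2 fold change was -0.01 (0.02 with the GC correction). Tdgf1 (0.07, SE 0.17), the beta-catenin gene Ctnnb1 (-0.13, SE 0.15), Fgf4 (0.11, SE 0.14) and the Nodal inhibitor gene Lefty2 (0.16, SE 0.16) were the most abundant. Corrected for GC content, their values were 0.00, -0.04, 0.21 and 0.29, in the same order. With the GC correction, under which 1.18% of all genes passed, Bmp4 passed as higher and Smad3 as lower. These 2 genes, and Nodal, were named after their values were seen. Bmp4, a ligand that posteriorizes the epiblast, had 50.04 and 55.97 CPM in wild-type and 80.8 and 81.4 CPM in knock-in cells. Its log2 fold change was 0.61 with all libraries (SE 0.16, edgeR adjusted p = 0.243) and 0.76 with the correction (edgeR adjusted p = 0.00447). Smad3, which transduces Nodal and activin signals, had 32.3 and 33.4 CPM in wild-type and 15.9 and 17.9 CPM in knock-in cells. Its log2 fold change was -0.96 with all libraries (SE 0.17, edgeR adjusted p = 0.126) and -0.79 with the correction (edgeR adjusted p = 0.00848). For both genes the knock-in libraries lie close together and do not overlap wild-type, and with the uncorrected fit both passed when either wild-type library was left out and neither when a knock-in library was. Nodal itself had 85.9 and 109 CPM in wild-type and 78.2 and 71.1 CPM in knock-in cells (-0.38, SE 0.17, edgeR adjusted p = 0.455), and it was -0.16 with the GC correction (edgeR adjusted p = 0.512). In 1 of 19 alternatives it passed: without wild-type 1, where 32.1% of genes did, it was -0.54 (edgeR adjusted p = 9.94e-06), against -0.22 without wild-type 2 (edgeR adjusted p = 0.326). Tdgf1 likewise passed in that fit alone (0.30, edgeR adjusted p = 0.0288), and its sign turned to -0.14 without wild-type 2.

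Organizer and definitive endoderm genes were scarce: 7 of 14 were tested, 0 passed and the median was -0.26 (0.01 with the GC correction). Otx2, a factor of the anterior epiblast that also serves formative pluripotency, had 21.8 and 17.8 CPM in wild-type and 13.7 and 15.03 CPM in knock-in cells (-0.47, SE 0.19, edgeR adjusted p = 0.438). Its value was -0.31 without wild-type 1 and -0.62 without wild-type 2. Otx2 did not pass with the GC correction and all libraries (-0.50, edgeR adjusted p = 0.104). Under the correction it was -0.45 without wild-type 1 and -0.53 without wild-type 2. Otx2 passed in 3 of 19 alternatives: these corrected fits and the uncorrected fit without wild-type 2. Each leaves a lone wild-type library, which is assumed to vary like the knock-in pair. Hhex (0.01, SE 0.22), Chrd (-0.16, SE 0.26) and Gata6 (-0.43, SE 0.42) followed in abundance, with 0.14, 0.02 and -0.24 under the correction. Foxa2 had at most 3 counts in a library and Cer1 had 0 in all. Of 15 blood and vessel genes that would accompany Kdr, 13 were tested and 0 passed (median -0.07, and 0.13 with the GC correction). Pecam1, an adhesion gene that stem cells also express, had a log2 fold change of -0.31 (SE 0.14, -0.22 with the correction) and Flt4, a vascular growth factor receptor gene, of -0.07 (SE 0.19, 0.15 with the correction).

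Markers of other states and cell types were read beside the members. Neither the naive list (13 of 13 tested, median 0.01, with Esrrb at 0.14 and Zfp42 at 0.15) nor the core list (9 of 9, median 0.02) had a gene past the threshold, nor had the formative list (14 of 15, median -0.02, with Etv5 at 0.01 and Dnmt3b at 0.11). After the GC correction these 3 medians were 0.14, 0.16 and 0.05, again with no gene past the threshold. Trophoblast, where Eomes is also active, is a case in which the defining marker was near 0: Elf5 had at most 3 counts, and so had Cdx2. The trophoblast list summed to 79.6 and 84.4 CPM in wild-type and 78.4 and 74.2 CPM in knock-in cells, and 1 of its 8 tested genes passed, the keratin gene Krt19, which fell in knock-in cells (log2 difference -1.59 ± 0.21 SE, with an edgeR adjusted p of 0.0478). The call was lost without knock-in 2 (-1.48, edgeR adjusted p = 0.103) and at about the same size with a stricter low-count filter (edgeR adjusted p = 0.0601) and limma-voom (adjusted p = 0.060), and it held in the other 16 of 19 alternatives. Under the GC correction Krt19 passed at -1.36, and Tfap2c, a trophoblast and germ cell factor, passed in the opposite direction at 0.57 (edgeR adjusted p = 0.0341, against 0.430 for 0.42 without the correction). The list's median was -0.39, and -0.29 with the correction. Primitive endoderm markers summed to 869 and 961 CPM in wild-type and 625 CPM in each knock-in library. Of these, 12 of 15 were tested and 0 passed (median -0.41, and -0.24 with the GC correction, with Sparc at -0.40 and Lama1 at -0.55), while Afp had 0 counts and Sox17 at most 12. With the GC correction 2 of them passed as lower, the basement membrane collagens Col4a1 (-0.87, edgeR adjusted p = 0.00399) and Col4a2 (-0.99, edgeR adjusted p = 0.00449). Uncorrected, both also passed in DESeq2 (-1.09 and -1.23, DESeq2 adjusted p = 2.65e-06 and 4.38e-06). They did not in limma-voom (-1.10 and -1.24, limma-voom adjusted p = 0.0600 and 0.0682). Over the 19 alternatives they ranged from -1.15 to -0.71 and from -1.35 to -0.81. The fibroblast and feeder list had 7 of 12 genes tested and 0 past the threshold, all with negative values (median -0.71, and -0.48 with the GC correction, with Fn1 at -0.10, or 0.07 corrected, and Vim at -0.02). It summed to 1830 and 2077 CPM in wild-type and to 1714 and 1956 CPM in knock-in cells, with Dcn at 1 count at most and Lum at 0. The neuroectoderm list had 5 of 12 tested and 0 past the threshold (median -0.28, with Tubb3 at -0.33 and Nes at -0.28, and each of the 3 at -0.07 with the GC correction), and summed to 149 and 236 CPM in wild-type and 162 and 149 CPM in knock-in cells. The part of these other cell types in the lower values of Eomes and Gsc was not tested.

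**Figure D4:**
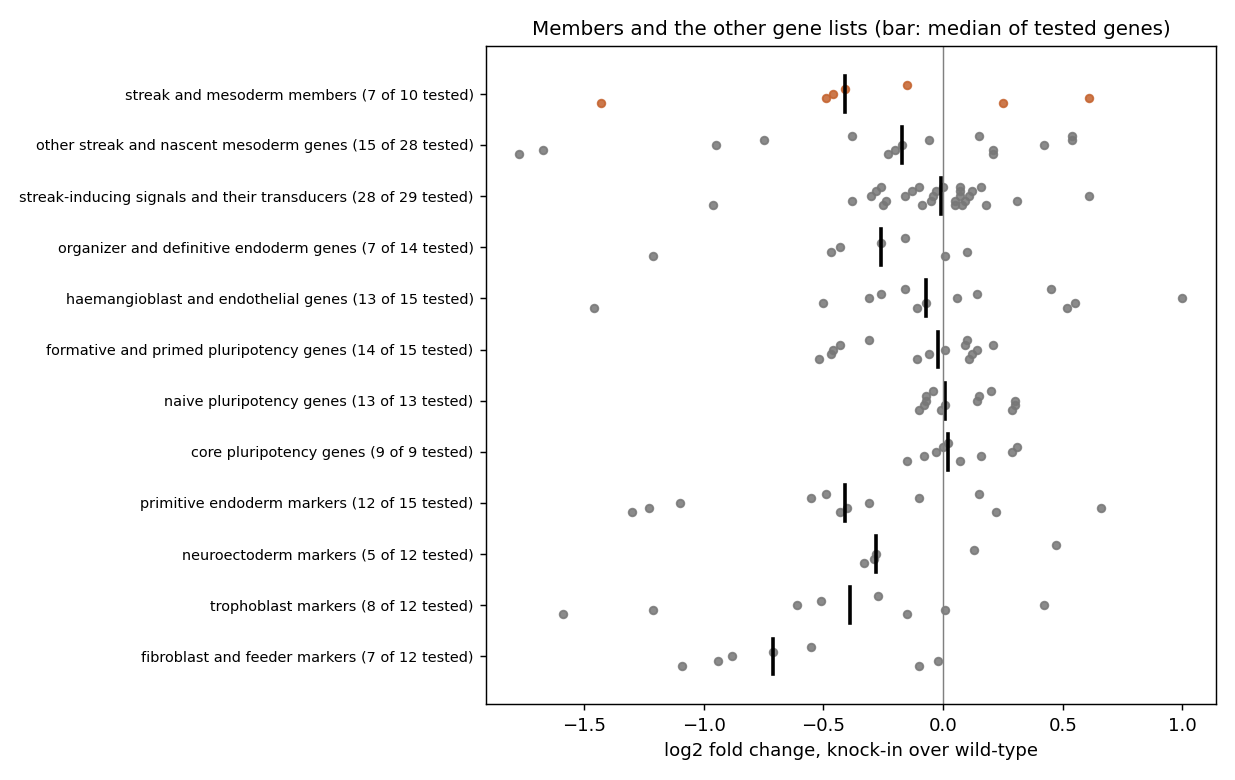
Log2 fold change of knock-in over wild-type for the tested genes of the member list and of 11 other lists, each point a gene and each bar a list's median. The members spread from Gsc at -1.43 to Cdx1 at 0.61, and the medians of the signalling and pluripotency lists lie between -0.02 and 0.02.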

How the data were processed

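RNA was sequenced from 2 wild-type and 2 knock-in libraries made with an Illumina TruSeq kit from total RNA, per the labels' protocols. The deposited tables hold raw counts of reads per gene in STAR's layout. Trim Galore, STAR 2.5.3a and GRCm38 (mm10) are listed in the submitters' processing notes, with the gene annotation not given in the sources used here. Among 54838 identifiers, 54809 matched GENCODE M21, which gave symbols, coordinates and union exon lengths. The unstranded column was used, since the strand columns split evenly (50.2% to 50.5% reverse). Reads on bases shared by a gene and an antisense partner therefore cannot be told apart, and that column counts them for neither. The summary rows, which name no gene, were left out: 5.96% to 6.38% of reads were ambiguous, 3.80% to 4.46% multimapping, 2.23% to 3.67% outside features and 2.38% to 4.39% unmapped.

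Differences were tested with edgeR 4.0.16 in R 4.3.3 (TMM scaling, filterByExpr with minimum count 10, quasi-likelihood F test, genotype alone, Benjamini-Hochberg over 15191 genes, threshold 0.05), and the procedure was tested on simulated data. The simulated counts had a common dispersion for all genes, no GC trend and no planted change in the scarcest genes. That test therefore does not cover the members with the lowest counts or the GC trend of wild-type 2. Log2 fold changes are knock-in over wild-type, and the standard error is the absolute log2 fold change over the square root of F. For the GC correction, each library's log2 CPM deviation was fitted on the GC content of the longest transcript (natural spline, 5 degrees of freedom) and used as an offset. Alternatives were DESeq2 1.42.0, limma-voom (limma 3.58.1), DESeq2 size factors, other filters, single-strand columns, a replicate block and leaving out each library. A crossed pairing was added after the data were seen. Members, lists and settings were chosen with earlier results of these data known. All 10 members are named, with Ep300, Crebbp, Pou5f1, Sox2 and Nanog as a check of the labels. From each other list, genes past the threshold are named or, where none passed, the 2 tested genes with the highest mean CPM (4 for the streak, signal and organizer lists). Abundance in those lists refers to CPM, not to CPM per kilobase. Genes cited for counts at or near 0, Mesp2, Hand1, Snai1 and 3 signalling genes were named after their values were seen. So were Tfap2c, Col4a1 and Col4a2, which passed with the GC correction.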

Additional observations from a re-analysis of the deposited data

How the results depend on the processing

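The count of genes past the threshold, 10 with all libraries, moved with most settings: 354 without the low-count filter, 6 with a stricter one, 180 with the GC correction, 123 with DESeq2, 4 with limma-voom, and 16 to 5015 when 1 library was left out. With the GC correction as well it was 1567 or 621 genes with wild-type 1 or 2 left out and 94 or 154 genes with knock-in 1 or 2 left out. In such a fit the lone library left in a group is assumed to vary like the other pair. With the replicate number as a block the count was 197, and 403 with the block and the GC correction. Same-numbered libraries did not deviate together (correlation -0.116), so the numbers are not taken to pair them; the crossed pairing gave 509. The count of members past the threshold, 0, became 1 (Cdx1) in 5 alternatives: without wild-type 1, with the replicate block and GC correction together, and with the GC correction without wild-type 1, without wild-type 2 or without knock-in 2, a range of 0 to 1. The block alone called 0 members. The direction reversed for T without wild-type 1 (-0.09), for Fgf8 without wild-type 2 (0.26) and with the GC correction without wild-type 2 (0.40) or knock-in 2 (0.08), and for Kdr in the forward-strand column (0.02). When 1 library was left out, T ranged from -0.09 to 0.62 and Fgf8 from -0.91 to 0.26. The causes were not tested. Eomes, Mixl1 and Gsc kept a negative sign in every alternative that gave a value (-0.60 to -0.14, -1.05 to -0.05 and -1.69 to -1.05), and Cdx1 a positive one (0.42 to 1.05). For Evx1, fitted without the filter and with no call, the value was -1.49 and ranged from -1.92 to -0.17. Depth limits what can be said of the members under 1 CPM.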
